A study of Mus musculus with 20 samples.

Results

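Kidneys of mice given 30 mg/kg of 7-hydroxycoumarin-β-D-glucuronide (7-HCG) together with cisplatin were compared with kidneys of control mice, using 10 of the 20 kidney RNA libraries in the series, 5 in each group. The libraries were chosen by their labelled treatment and not by any measured value. Mice of the first group, called 7-HCG 30 below, were male C57BL/6J animals of 6 to 8 weeks and 18 to 22 g that received 30 mg/kg 7-HCG by mouth once a day for 5 days and a single intraperitoneal injection of 10 mg/kg cisplatin on day 3. Control mice were of the same strain, sex, age and weight and received PBS by mouth and saline by injection. Whole kidneys were taken 72 h after the injection, and polyadenylated RNA was sequenced. The other 10 libraries came from mice given cisplatin with oral PBS and from mice given 15 mg/kg 7-HCG with cisplatin. There was no group on 7-HCG alone, so the comparison with control holds the effects of both agents together and cannot assign a change to either.

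Cisplatin is a platinum drug used against tumours that is taken up by the proximal tubule, the nephron segment that reabsorbs most of the filtered solutes and burns fatty acids to power that transport. There it forms platinum adducts on DNA, activates the p53 pathway and injures the epithelium, which sheds marker proteins such as KIM-1 and NGAL into the urine. 7-HCG is the glucuronide conjugate of 7-hydroxycoumarin, a plant coumarin that mammals conjugate with glucuronic acid.

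The 7-HCG 30 libraries held 25972128 to 49602115 counts and the control libraries 25085860 to 34003338. The level used as a floor, 3 counts, was worth 0.0497 to 0.110 CPM (counts scaled to library size) in 7-HCG 30 libraries and 0.0798 to 0.125 CPM in control libraries. Markers of the nephron were present in every library, and the adrenal enzyme gene Cyp11b1 stood at 0 in all 7-HCG 30 kidneys and reached 0.133 CPM in control. Genes of adipose tissue varied widely within both groups: Adipoq, which encodes the fat cell hormone adiponectin, reached 5.71 CPM in 7-HCG 30 kidneys and 104.7 CPM in control kidneys and was at 0 in at least 1 library of each. The 3 libraries richest in these genes, 7-HCG 30 replicate 6 and control replicates 2 and 5, are called adipose-rich, and the count of each gene list against control is also given without them, which leaves 4 libraries of 7-HCG 30 and 3 of control. Values per animal are given in the order of replicates 1, 5, 6, 7 and 8 for 7-HCG 30 and 1, 2, 5, 7 and 8 for control.

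Of 14858 genes tested, 5088 (34.2%) differed at an adjusted p below 0.05, of which 2771 (18.6% of all tested) were higher in 7-HCG 30 kidneys and 2317 (15.6%) were lower. Changes of more than 2-fold were fewer among the rises, at 1071 higher (7.21%) and 1755 lower (11.8%). The CPM ranges of the groups did not overlap for 4237 genes (28.5%), 2356 (15.9%) higher and 1881 (12.7%) lower. The median log2 fold change of all tested genes was 0.01, and all fold changes below are log2 of 7-HCG 30 over control, with the standard error after ±. The direction split depended on scaling, since RLE factors gave 2194 higher and 2783 lower and DESeq2 gave 2458 higher and 3186 lower. Scaling to library totals alone gave 926 higher and 1125 lower, and leaving out the adipose-rich libraries gave 1142 higher and 813 lower. At q below 0.05 and more than 2-fold, the authors' deposited table lists 1064 rises and 2628 falls. It gives a q value for 19428 genes, against the 14858 tested here, so its counts and those above do not cover the same genes.

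The direction of change also followed transcript length. When the tested genes were cut into 5 equal bins by annotated length, the shortest bin (up to 1903 bp) had a median log2 fold change of 0.31, with 26.9% of genes higher and 7.84% lower. The longest bin (from 5170 bp) had a median of -0.36, with 6.25% higher and 28.2% lower. The bins between them lay in order, with medians of 0.20, 0.06 and -0.09 from shorter to longer. How much of any list's change goes with the length of its members was not tested, and the median length is given beside each list whose median falls in the shortest or the longest bin.

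**Figure D1:**
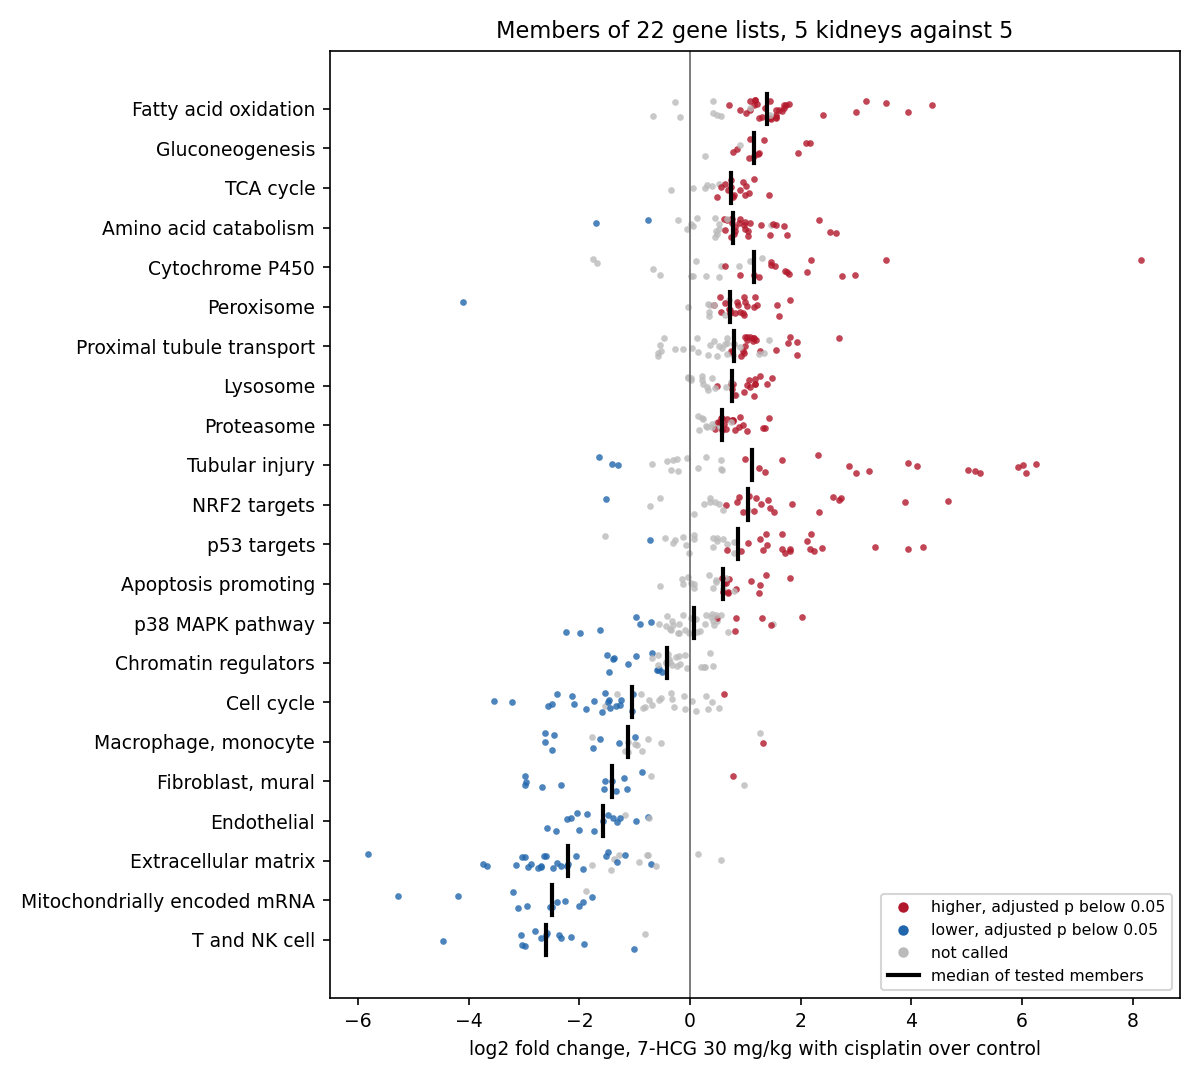
Log2 fold change (7-HCG 30 over control, horizontal axis) of every tested member of 22 gene lists, 1 point per gene, with a bar at each list's median. The fatty acid oxidation genes centre on 1.40, while the matrix genes centre on -2.20 and the mitochondrial mRNAs on -2.49.

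Most tubular injury genes that were called were higher after 7-HCG and cisplatin than in control, and the size of the rise varied widely between animals. Of the injury list, 17 of 32 tested members were higher and 3 lower, with a median log2 fold change of 1.12, against 18.6% higher and 15.6% lower among all genes. For the injury list these counts were 11 higher and 1 lower with library totals alone, and 11 higher and 0 lower without the adipose-rich libraries. Its median transcript is 1775.5 bp. Lcn2, which encodes the secreted lipocalin NGAL and lies on chromosome 2, 32384633 to 32388252 (GRCm38), had 13.3, 387, 837, 156 and 178 CPM in 7-HCG 30 kidneys, against 10.3, 44.4, 22.6, 5.04 and 8.58 CPM in control. The 7-HCG 30 replicate 1 lay within the control range and replicate 6 was highest, so the groups overlapped, and the difference was 17.3-fold (log2 fold change 4.11 ± 1.03, adjusted p = 0.00611). Havcr1, which encodes the phosphatidylserine receptor KIM-1 of injured proximal tubule (chromosome 11, 46735080 to 46779578), had 7.74, 166, 219.5, 73.5 and 25.7 CPM in 7-HCG 30 kidneys, against 0.998, 5.80, 0.691, 2.63 and 3.61 CPM in control. Here the lowest 7-HCG 30 kidney, replicate 1, stood above the highest control kidney (log2 fold change 5.15 ± 1.10, adjusted p = 0.00234).

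Krt20, a keratin that injured tubule cells acquire (chromosome 11, 99428403 to 99438150), spanned an even wider range, with 0.187, 183, 697, 25.6 and 13.7 CPM in 7-HCG 30 kidneys, against 0.249, 9.04, 2.24, 0.272 and 0.0957 CPM in control. Replicate 1 of the 7-HCG 30 group fell among the control values and the other 4 animals lay above them all (log2 fold change 6.25 ± 1.74, adjusted p = 0.0113); the limma voom alternative did not call it (4.90, adjusted p = 0.266). Sox9, a transcription factor of regenerating tubule epithelium (chromosome 11, 112782224 to 112787760), had 0.723, 10.9, 50.3, 6.06 and 3.03 CPM in 7-HCG 30 kidneys, against 0.291, 0.638, 0.498, 0.393 and 0.319 CPM in control, with no overlap between groups (log2 fold change 5.02 ± 1.06, adjusted p = 0.00222, and by limma voom 3.61, adjusted p = 0.0562). Clu, which encodes the secreted chaperone clusterin, and Spp1, which encodes osteopontin, rose by 2.87 ± 0.52 (adjusted p = 0.00068) and 3.01 ± 0.61 (adjusted p = 0.0015). In each of the 6 genes plotted by kidney (Lcn2, Havcr1, Krt20, Sox9, Cdkn1a and Fgb), replicate 6 was the highest and replicate 1 the lowest of the 7-HCG 30 animals.

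**Figure D2:**
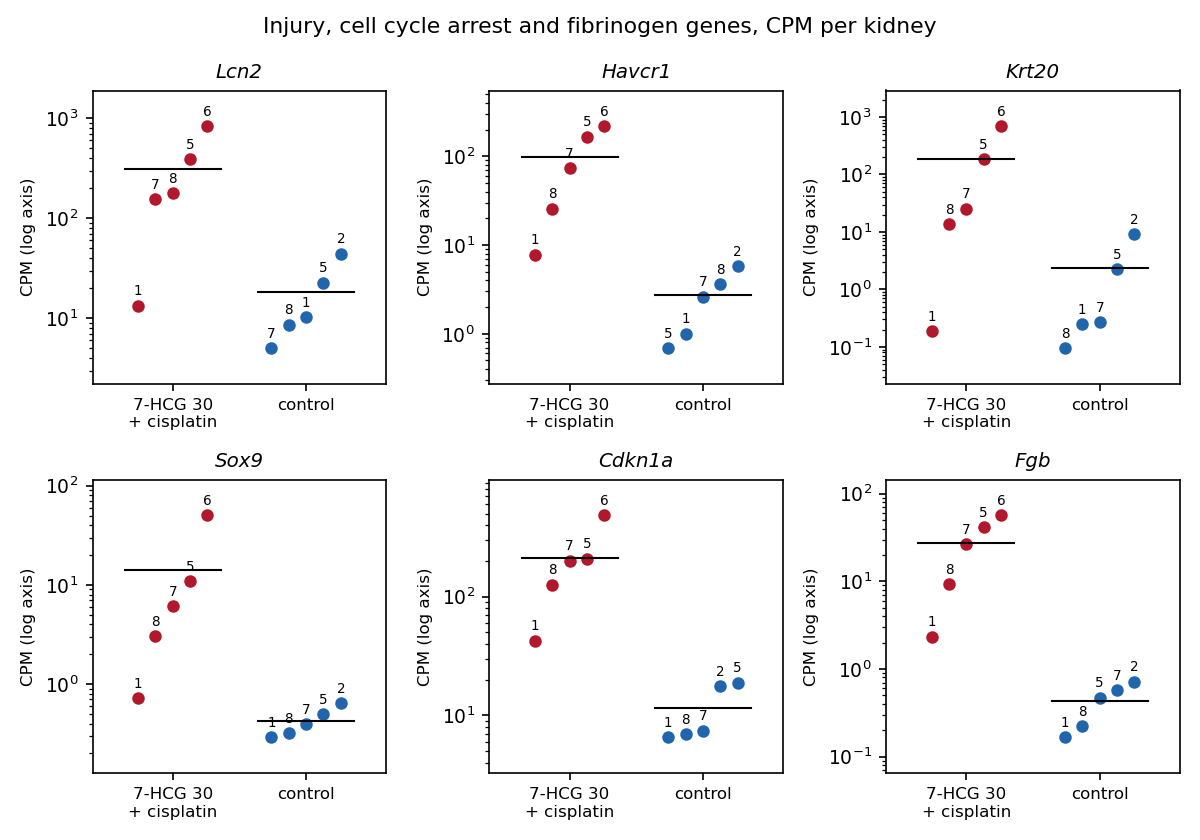
CPM per kidney on a log axis for Lcn2, Havcr1, Krt20, Sox9, Cdkn1a and Fgb, with 7-HCG 30 kidneys left of control kidneys, 1 point per animal and a line at the group mean. Replicate 1 of 7-HCG 30, at 13.3 CPM of Lcn2 and 7.74 CPM of Havcr1, lies far below replicate 6, at 837 and 220 CPM.

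The 3 injury list genes that fell were named after their values were seen. They were Ccl2, which encodes a chemokine that draws monocytes (log2 fold change -1.31 ± 0.42, adjusted p = 0.0221), the annexin gene Anxa1 (log2 fold change -1.41 ± 0.30, adjusted p = 0.00198) and S100a6, a calcium-binding protein gene (log2 fold change -1.65 ± 0.61, adjusted p = 0.0435). Their calls ended in 5 of 20 alternatives, 1 of 20 alternatives and 10 of 20 alternatives. Without the adipose-rich libraries, Ccl2 stood at -1.49, adjusted p = 0.0658, Anxa1 at -0.73, adjusted p = 0.0822, and S100a6 at -0.10, adjusted p = 0.906. All 3 are also expressed by cells outside the tubule. Without 7-HCG 30 replicate 6, which is highest in these markers and 1 of the adipose-rich libraries, 5 members of the list were lower.

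Among the genes ranked, the 4 largest rises were those of Il1f6 and the fibrinogen genes. The ranking took called genes whose groups did not overlap and whose higher group averaged 2 CPM or more. It left out symbols that start with Gm and a digit or end in Rik. All 3 fibrinogen chains, the subunits of the clotting protein that is made mostly by liver, rose in kidney. Fgb (chromosome 3, 83040141 to 83049863) had 2.33, 41.4, 56.7, 26.5 and 9.33 CPM in 7-HCG 30 kidneys, against 0.166, 0.718, 0.470, 0.574 and 0.223 CPM in control, and every 7-HCG 30 kidney exceeded every control kidney (log2 fold change 5.93 ± 1.21, adjusted p = 0.00185). Fga and Fgg, which lie on the same chromosome (chromosome 3, 83026076 to 83033627, and chromosome 3, 83007724 to 83015049), rose by 5.24 ± 0.74 (adjusted p = 0.000163) and 6.08 ± 1.05 (adjusted p = 0.000614). Il1f6, which encodes the interleukin-36α cytokine (chromosome 2, 24215418 to 24225702), showed 1.05, 7.63, 3.00, 6.99 and 3.24 CPM in 7-HCG 30 kidneys, against 0, 0.160, 0, 0 and 0.0638 CPM in control (log2 fold change 6.40 ± 1.09, adjusted p = 0.000478). Its control values lay around the floor of 3 counts, so its fold change rests on few counts there.

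The list of interleukin-6 and STAT3 signalling holds pathway components and genes that respond to them, and shares Fga and Fgg with the injury list. 11 of 24 tested members were higher and 0 lower, with a median log2 fold change of 0.88. For the interleukin-6 list, which includes the fibrinogen genes, these counts were 12 higher and 1 lower with library totals alone, and 7 higher and 0 lower without the adipose-rich libraries. Stat3 itself, the transcription factor of that pathway, rose by 1.32 ± 0.27 (adjusted p = 0.00157). The serum amyloid A genes Saa3 and Saa4 encode acute phase apolipoproteins and belong to a family of near copies whose reads may be shared. They rose by 5.16 ± 1.04 (adjusted p = 0.00143) and 4.62 ± 0.85 (adjusted p = 0.000806). Saa3 had 8 counts in the control libraries together, with 0 in 3 of them, so its fold change rests on few counts there. Complement component C3 rose by 3.09 ± 0.81 (adjusted p = 0.00803) but was not called without the adipose-rich libraries (2.84, adjusted p = 0.0558). Cfi, which encodes a protease that inactivates C3b, rose by 2.98 ± 0.49 (adjusted p = 0.000351) and kept its call in every alternative other than the replicate block. Ly6f, a gene of the Ly6 family of surface proteins, rose by 4.01 ± 0.61 (adjusted p = 0.000183) with 1.63 to 7.40 CPM in 7-HCG 30 kidneys, against 0.151 to 0.442 CPM in control.

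Among genes induced by p53, which DNA damage activates, all but 1 of those called were higher. 20 of 38 tested members were higher and 1 lower, with a median log2 fold change of 0.86. For the p53 list these counts were 15 higher and 0 lower with library totals alone, and 14 higher and 0 lower without the adipose-rich libraries. Cdkn1a, the gene of p21, an inhibitor of cyclin-dependent kinases (chromosome 17, 29090979 to 29100722), had 42.4, 209, 483, 201 and 126 CPM in 7-HCG 30 kidneys, against 6.53, 17.7, 18.8, 7.43 and 6.92 CPM in control. The lowest 7-HCG 30 kidney was again replicate 1, and it still exceeded all control kidneys (log2 fold change 4.21 ± 0.78, adjusted p = 0.000989). Ccng1, a cyclin gene induced by p53, had 165, 475, 638, 565 and 394 CPM in 7-HCG 30 kidneys, against 89.6, 104, 85.7, 124 and 112 CPM in control, without overlap (log2 fold change 2.12 ± 0.33, adjusted p = 0.00023). Aen, which encodes an exonuclease of apoptosis, and Zmat3, which encodes an RNA-binding zinc finger protein, rose by 1.71 ± 0.26 (adjusted p = 0.000201) and 1.66 ± 0.26 (adjusted p = 0.000258). The 1 target that fell was Sesn1, a stress-induced regulator of nutrient signalling, named after its values were seen (log2 fold change -0.72 ± 0.24, adjusted p = 0.0283); this call ended in 6 of 20 alternatives.

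Apoptosis genes were counted by whether they promote or restrain cell death. Of the promoting genes, 13 of 27 tested members were higher and 0 lower, with a median log2 fold change of 0.60, whereas of the restraining genes, 2 of 14 tested members were higher and 4 lower, with a median log2 fold change of -0.20. For the promoting list these counts were 3 higher and 0 lower with library totals alone, and 4 higher and 0 lower without the adipose-rich libraries, and for the restraining list 1 higher and 2 lower with library totals alone, and 2 higher and 2 lower without the adipose-rich libraries. Bid, which encodes a BH3 protein that links caspase 8 to mitochondria, rose by 1.25 ± 0.23 (adjusted p = 0.000699). The p53-induced BH3 genes Bbc3 (PUMA) and Pmaip1 (NOXA), named after their values were seen, rose by 1.81 ± 0.51 (adjusted p = 0.0118) and 1.26 ± 0.44 (adjusted p = 0.0333), the second with a call that ended in 9 of 20 alternatives. Endog, a mitochondrial nuclease gene, rose by 1.38 ± 0.33 (adjusted p = 0.00404; 1.19, adjusted p = 0.0569 without the adipose-rich libraries). Bax, the pore-forming effector, did not pass the threshold (log2 fold change 0.60 ± 0.24, adjusted p = 0.0561), although it was called in 2 of 20 alternatives, among them the fit of the 10 libraries alone (0.52, adjusted p = 0.0259). On the restraining side the antiapoptotic Bcl2 fell with -0.97 ± 0.24 (adjusted p = 0.0046; -0.91, adjusted p = 0.0986 with library totals alone), while its relative Bcl2l1 (BCL-XL) rose by 1.19 ± 0.31 (adjusted p = 0.00727).

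Genes of the p38 stress kinase pathway, which relays stress signals to transcription factors, changed at about the rate of all genes. 6 of 40 tested members were higher and 6 lower, with a median log2 fold change of 0.07. For the p38 list these counts were 4 higher and 3 lower with library totals alone, and 2 higher and 3 lower without the adipose-rich libraries, with 3 lower without control replicate 5. Mapk14, which encodes the widely expressed p38α, was not called (log2 fold change 0.47 ± 0.22, adjusted p = 0.103; 61.0 to 101 CPM in 7-HCG 30 kidneys, against 50.5 to 73.1 CPM in control), though it was called higher in 1 of 20 alternatives. Mapk13, which encodes the epithelial p38δ, rose by 1.46 ± 0.39 (adjusted p = 0.00738; 1.19, adjusted p = 0.107 without the adipose-rich libraries). Mapk12, which encodes p38γ, fell with a log2 fold change of -0.97 ± 0.24 (adjusted p = 0.00477; -0.94, adjusted p = 0.0855 with library totals alone). The p38 substrate kinase gene Mapkapk2 rose by 1.30 ± 0.28 (adjusted p = 0.00202), and Mef2c, which encodes a transcription factor phosphorylated by p38, fell with -1.98 ± 0.40 (adjusted p = 0.00125).

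Immediate early genes, which are transcribed within minutes of a stimulus, were uneven at 72 h. 7 of 24 tested members were higher and 2 lower, with a median log2 fold change of 0.75. For the immediate early list these counts were 5 higher and 2 lower with library totals alone, and 0 higher and 0 lower without the adipose-rich libraries. Without 7-HCG 30 replicate 6, 1 member was higher, and without control replicate 1, 3 were. Fos had 0.583 to 7.69 CPM in 7-HCG 30 kidneys, against 1.12 to 4.97 CPM in control, with replicate 1 of 7-HCG 30 far below the rest, and was not called (log2 fold change 0.97 ± 0.72, adjusted p = 0.301). Atf3, a stress-induced repressor gene, also missed the threshold (log2 fold change 1.63 ± 0.65, adjusted p = 0.0606), but was called in 3 of 20 alternatives. Fosl1, which encodes the AP-1 subunit FRA1, rose by 4.55 ± 1.09 (adjusted p = 0.00482), but not by limma voom (3.12, adjusted p = 0.129) or without the adipose-rich libraries (3.69, adjusted p = 0.0767). Nr4a2, an orphan nuclear receptor gene, fell with -2.64 ± 0.73 (adjusted p = 0.0092) and stood at -1.14, adjusted p = 0.291 without the adipose-rich libraries.

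Targets of NRF2, the transcription factor that responds to oxidants and electrophiles, were mostly higher. 18 of 29 tested members were higher and 1 lower, with a median log2 fold change of 1.05. For the NRF2 list these counts were 13 higher and 1 lower with library totals alone, and 9 higher and 0 lower without the adipose-rich libraries. Gsta3, a glutathione transferase gene, had 119.8, 199.7, 242, 117 and 166 CPM in 7-HCG 30 kidneys, against 19.9, 26.6, 26.6, 30.8 and 27.6 CPM in control (log2 fold change 2.68 ± 0.33, adjusted p = 4.24e-05). Hmox1, which encodes the haem-degrading enzyme haem oxygenase 1, had 38.5, 163, 261, 82.5 and 62.7 CPM in 7-HCG 30 kidneys, against 11.4, 18.7, 13.7, 27.2 and 30.1 CPM in control (log2 fold change 2.59 ± 0.49, adjusted p = 0.00106). Both genes separated the groups completely. The redox enzyme genes Srxn1, Txnrd1 and Gsr rose by 2.74 ± 0.52 (adjusted p = 0.000936), 1.41 ± 0.27 (adjusted p = 0.000926) and 1.29 ± 0.22 (adjusted p = 0.000378), and the ferritin heavy chain gene Fth1 by 1.52 ± 0.30 (adjusted p = 0.0011). Gsta1, another transferase gene whose reads may be shared with its copies, had 1.19, 11.3, 35.2, 2.91 and 3.40 CPM in 7-HCG 30 kidneys, against 0.624, 0.399, 0.111, 0.513 and 0.479 CPM in control (log2 fold change 4.67 ± 1.10, adjusted p = 0.00447). Replicate 6 was far above the rest, and the call ended without the adipose-rich libraries (3.12, adjusted p = 0.102). The 1 member that fell was Gstm2, named after its values were seen (log2 fold change -1.52 ± 0.35, adjusted p = 0.00323; -0.69, adjusted p = 0.147 without the adipose-rich libraries).

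Metallothioneins are small cysteine-rich proteins that bind zinc and copper and also platinum, and their genes Mt1 and Mt2 rose. 4 of 8 tested members were higher and 0 lower, with a median log2 fold change of 0.51. For the metallothionein and zinc list these counts were 3 higher and 0 lower with library totals alone, and 1 higher and 0 lower without the adipose-rich libraries. Mt1 had 176, 404, 1216, 202 and 330.1 CPM in 7-HCG 30 kidneys, against 80.5, 81.0, 77.5, 87.4 and 76.1 CPM in control. Its neighbour Mt2 had 47.2, 238, 549.6, 123 and 172 CPM in 7-HCG 30 kidneys, against 14.1, 21.9, 19.3, 16.0 and 14.9 CPM in control. All 7-HCG 30 kidneys exceeded all control kidneys in Mt2 (log2 fold change 3.71 ± 0.78, adjusted p = 0.00217), and Mt1 rose by 2.53 ± 0.60 (adjusted p = 0.00419; 1.78, adjusted p = 0.0768 without the adipose-rich libraries). The zinc importer gene Slc39a14 rose by 1.40 ± 0.35 (adjusted p = 0.0054) and the zinc exporter gene Slc30a1 by 0.87 ± 0.25 (adjusted p = 0.0121), and without the adipose-rich libraries these stood at 0.74, adjusted p = 0.151, and 0.83, adjusted p = 0.0918.

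Because both metallothionein genes rose, the 250 bases before their RefSeq starts are shown, with matches to the core of the metal response element, written here as TGCACNC or TGCGCNC on either strand, in capitals. This element is bound by the zinc-sensing factor MTF1. The sequences are RefSeq's, in GRCm38.p6, plus strand, 5′ to 3′, at chr8:94178839-94179088 for Mt1 and chr8:94172368-94172617 for Mt2.
Mt1: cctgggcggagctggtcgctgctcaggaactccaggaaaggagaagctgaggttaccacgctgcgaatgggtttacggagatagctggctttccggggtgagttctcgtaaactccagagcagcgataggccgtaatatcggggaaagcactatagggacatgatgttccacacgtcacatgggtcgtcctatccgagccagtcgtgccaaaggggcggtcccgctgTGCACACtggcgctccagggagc
Mt2: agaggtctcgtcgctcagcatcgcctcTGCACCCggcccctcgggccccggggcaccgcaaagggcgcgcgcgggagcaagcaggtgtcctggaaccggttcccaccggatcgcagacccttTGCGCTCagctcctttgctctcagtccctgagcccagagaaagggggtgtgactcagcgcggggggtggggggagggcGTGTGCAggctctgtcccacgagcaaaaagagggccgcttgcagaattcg
The Mt1 window held 1 match and the Mt2 window 3. Only these windows were searched, not the bases after the RefSeq starts or before any other start of either gene. The counts therefore cannot tell how many such elements Mt1 and Mt2 have, or which has more. Of 32851 promoters of the same length, 21.4% held at least 1 match and 1.26% held at least 3. A match describes the letters alone and does not show that a factor bound there.

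Glucocorticoid-responsive genes were higher in 7-HCG 30 kidneys or were not called. 9 of 17 tested members were higher and 0 lower, with a median log2 fold change of 1.94. For the glucocorticoid list these counts were 9 higher and 0 lower with library totals alone, and 7 higher and 0 lower without the adipose-rich libraries. The list shares Lcn2, Cdkn1a, Mt1 and Mt2 with lists above. Fkbp5, which encodes a co-chaperone of the glucocorticoid receptor (chromosome 17, 28399095 to 28517524), had 79.5, 182, 445, 181 and 142 CPM in 7-HCG 30 kidneys, against 21.2, 23.7, 23.5, 33.8 and 28.9 CPM in control, with no overlap (log2 fold change 2.97 ± 0.41, adjusted p = 9.98e-05). Errfi1, which encodes an inhibitor of the EGF receptor, and Angptl4, which encodes an inhibitor of lipoprotein lipase, rose by 2.32 ± 0.38 (adjusted p = 0.000331) and 3.17 ± 0.53 (adjusted p = 0.000369). Outside the list, Ndrg1, a gene induced by hypoxia and other stress, rose by 2.17 ± 0.27 (adjusted p = 4.33e-05). Glucocorticoid hormone was not measured.

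Heat shock genes were called at or below the rate of all genes, and the HSP70 results rested on a few libraries. 3 of 26 tested members were higher and 4 lower, with a median log2 fold change of -0.02. For the heat shock list these counts were 0 higher and 1 lower with library totals alone, and 2 higher and 0 lower without the adipose-rich libraries. Hspa1b, which encodes an inducible HSP70, was lower (log2 fold change -2.64 ± 0.71, adjusted p = 0.00924), as was Hsph1, which encodes HSP105 (log2 fold change -1.74 ± 0.50, adjusted p = 0.0132), while Hspa1a was not called (log2 fold change -1.25 ± 0.48, adjusted p = 0.0508), though it was called lower in 8 of 20 alternatives. Without the adipose-rich libraries all 3 turned direction, to log2 fold changes of 0.02 for Hspa1b, 0.13 for Hsph1 and 0.21 for Hspa1a, none of them called. Without control replicate 5 alone, Hspa1b stood at -1.71 and Hsph1 at -0.89, the second not called (adjusted p = 0.0881). Hspa9, which encodes the mitochondrial chaperone mortalin, rose by 1.06 ± 0.19 (adjusted p = 0.000665; 1.06, adjusted p = 0.0545 with library totals alone). Outside the list, Herpud1, a gene of protein degradation at the endoplasmic reticulum, rose by 1.68 ± 0.29 (adjusted p = 0.000397).

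Genes of proximal tubule transport were higher in 7-HCG 30 kidneys or were not called, and none was called lower. 21 of 48 tested members were higher and 0 lower, with a median log2 fold change of 0.80. For the proximal transport list these counts were 11 higher and 0 lower with library totals alone, and 6 higher and 0 lower without the adipose-rich libraries. In whole kidney RNA, more cells of a type and more RNA per cell cannot be told apart, nor can fewer cells and less RNA per cell. Slc3a1, which encodes the heavy subunit of the cystine and dibasic amino acid transporter (chromosome 17, 85028347 to 85064243), had 382, 247, 202, 234 and 147 CPM in 7-HCG 30 kidneys, against 27.6, 31.7, 11.1, 58.8 and 58.9 CPM in control. No control kidney reached the 7-HCG 30 range (log2 fold change 2.69 ± 0.41, adjusted p = 0.000191). Replicate 1, the lowest in injury markers, was the highest of the 7-HCG 30 kidneys. Slc13a1, the sulphate transporter gene, and Slc4a4, the basolateral bicarbonate transporter gene, rose by 1.93 ± 0.33 (adjusted p = 0.000439) and 1.80 ± 0.32 (adjusted p = 0.000573).

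Other hallmark genes of the proximal tubule did not pass or passed narrowly. Slc34a1, the phosphate transporter gene, had 6439, 2286, 1448, 2996 and 2547 CPM in 7-HCG 30 kidneys, against 1627, 1319, 739.7, 2714 and 2678 CPM in control and was not called (log2 fold change 0.79 ± 0.44, adjusted p = 0.166). Lrp2, which encodes the endocytic receptor megalin, was not called either (log2 fold change 0.44 ± 0.34, adjusted p = 0.327; 332 to 836 CPM in 7-HCG 30 kidneys, against 163 to 609 CPM in control). Slc22a6, the organic anion transporter gene OAT1, rose by 0.99 ± 0.30 (adjusted p = 0.0161), but not with library totals alone (1.07, adjusted p = 0.0665) or without the adipose-rich libraries (0.68, adjusted p = 0.139). For the straight segment S3, 4 of 12 tested members were higher and 0 lower, with a median log2 fold change of 0.15. For the S3 list these counts were 1 higher and 0 lower with library totals alone, and 1 higher and 0 lower without the adipose-rich libraries. The S3 member Cyp2e1, a cytochrome P450 gene, rose by 1.71 ± 0.36 (adjusted p = 0.00188).

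The segments further along the nephron gave fewer calls, from shorter lists. In the thick ascending limb, 4 of 13 tested members were higher and 0 lower, with a median log2 fold change of 0.18. For the thick limb list these counts were 3 higher and 0 lower with library totals alone, and 2 higher and 0 lower without the adipose-rich libraries. Cldn14 and Cldn16, which encode tight junction proteins that set calcium and magnesium reabsorption, rose by 3.25 ± 0.85 (adjusted p = 0.00684) and 1.32 ± 0.28 (adjusted p = 0.00198). Umod, which encodes uromodulin, the most abundant protein of normal urine, had 2642, 2242, 1651, 1769 and 1836 CPM in 7-HCG 30 kidneys, against 850.3, 912, 489, 933 and 1556 CPM in control, and its call (log2 fold change 1.10 ± 0.39, adjusted p = 0.0349) ended in 8 of 20 alternatives. Irx1, a homeobox gene, rose by 1.07 ± 0.28 (adjusted p = 0.00668; 0.95, adjusted p = 0.0579 without the adipose-rich libraries). Egf, the growth factor gene of the distal nephron, was not called (log2 fold change 0.48 ± 0.47, adjusted p = 0.443).

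In genes of collecting duct principal cells, 0 of 13 tested members were higher and 3 lower, with a median log2 fold change of -0.50. For the principal cell list these counts were 0 higher and 2 lower with library totals alone, and 1 higher and 0 lower without the adipose-rich libraries. Aqp4, a basolateral water channel gene, fell with -2.47 ± 0.58 (adjusted p = 0.00447; -1.94, adjusted p = 0.0793 without the adipose-rich libraries). The apical water channel gene Aqp2 was not called (log2 fold change -0.84 ± 0.52, adjusted p = 0.211; 752 to 1103 CPM in 7-HCG 30 kidneys, against 821 to 3004 CPM in control), though it was called lower in 1 of 20 alternatives. In podocytes, the filter cells of the glomerulus, 1 of 14 tested members were higher and 3 lower, with a median log2 fold change of -0.58. For podocytes these counts were 1 higher and 2 lower with library totals alone, and 0 higher and 0 lower without the adipose-rich libraries. The median transcript of the list is long, at 5269 bp, in a bin where 6.25% of all genes were higher and 28.2% lower. Plce1, a phospholipase gene, fell with -1.31 ± 0.32 (adjusted p = 0.00476; -1.08, adjusted p = 0.0545 without the adipose-rich libraries).

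Fatty acid oxidation genes, which supply most of the energy of the proximal tubule, were broadly higher. 31 of 40 tested members were higher and 0 lower, with a median log2 fold change of 1.40. For the fatty acid list these counts were 26 higher and 0 lower with library totals alone, and 22 higher and 0 lower without the adipose-rich libraries. Acadvl, which encodes the dehydrogenase that starts oxidation of very long chain fatty acids (chromosome 11, 70010183 to 70015408), had 146, 134, 124, 104 and 87.3 CPM in 7-HCG 30 kidneys, against 16.9, 21.2, 21.0, 26.2 and 27.3 CPM in control. Every 7-HCG 30 kidney lay above every control kidney, with replicate 1 the highest (log2 fold change 2.40 ± 0.27, adjusted p = 1.65e-05). Etfdh, which passes electrons from that step to the respiratory chain, rose by 1.44 ± 0.16 (adjusted p = 1.99e-05), and Cpt1a, which encodes the carnitine transferase that admits fatty acids to mitochondria, by 1.55 ± 0.22 (adjusted p = 0.000104). No gene of the list fell, and these 3 kept their calls in every alternative run without a replicate block.

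Gluconeogenesis, by which the proximal tubule makes glucose, moved the same way. 11 of 13 tested members were higher and 0 lower, with a median log2 fold change of 1.15. For the gluconeogenesis list these counts were 7 higher and 0 lower with library totals alone, and 4 higher and 0 lower without the adipose-rich libraries. Fbp1, which encodes fructose-1,6-bisphosphatase (chromosome 13, 62864753 to 62888282), had 1527, 875, 732, 983 and 913 CPM in 7-HCG 30 kidneys, against 129, 217, 90.2, 421 and 321 CPM in control, without overlap (log2 fold change 2.09 ± 0.34, adjusted p = 0.000265). G6pc, which encodes the last enzyme of the pathway, rose by 2.17 ± 0.40 (adjusted p = 0.000759), and the malate dehydrogenase gene Mdh1 by 1.35 ± 0.23 (adjusted p = 0.000485). In the citric acid cycle, 16 of 22 tested members were higher and 0 lower, with a median log2 fold change of 0.74. For the cycle list these counts were 4 higher and 0 lower with library totals alone, and 5 higher and 0 lower without the adipose-rich libraries.

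Genes that break down amino acids were mostly higher as well. 27 of 42 tested members were higher and 2 lower, with a median log2 fold change of 0.77. For the amino acid list these counts were 13 higher and 1 lower with library totals alone, and 11 higher and 1 lower without the adipose-rich libraries. Gldc, which encodes the glycine-cleaving decarboxylase (chromosome 19, 30098449 to 30175418), had 98.1, 185, 214, 185 and 206 CPM in 7-HCG 30 kidneys, against 15.6, 21.1, 19.9, 48.1 and 38.8 CPM in control. The lowest 7-HCG 30 kidney, replicate 1, stood apart from the other 4 of its group yet above every control kidney (log2 fold change 2.63 ± 0.39, adjusted p = 0.000166). Bckdha and Pccb, which encode subunits of the branched-chain keto acid dehydrogenase and of propionyl-CoA carboxylase, rose by 2.53 ± 0.45 (adjusted p = 0.000686) and 1.44 ± 0.18 (adjusted p = 4.24e-05), and the glutamate dehydrogenase gene Glud1 by 1.69 ± 0.32 (adjusted p = 0.000775). The 2 that fell, named after their values were seen, were the branched-chain aminotransferase gene Bcat1 (log2 fold change -1.70 ± 0.43, adjusted p = 0.00628) and Bckdhb, the partner subunit of Bckdha (log2 fold change -0.77 ± 0.26, adjusted p = 0.026). Their calls ended in 1 of 20 alternatives and in 5 of 20 alternatives. Without control replicate 1, Bckdhb stood at -0.43.

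**Figure D3:**
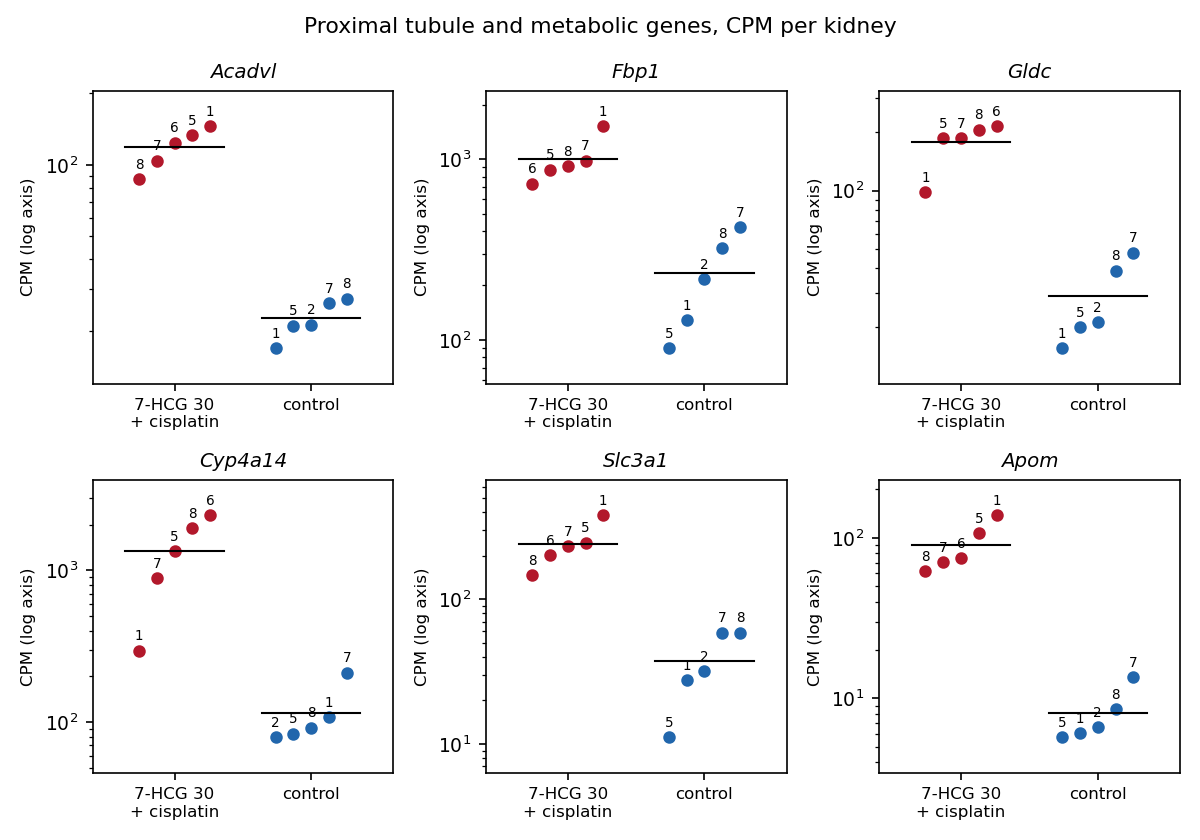
CPM per kidney on a log axis for Acadvl, Fbp1, Gldc, Cyp4a14, Slc3a1 and Apom, with 7-HCG 30 kidneys left of control kidneys, 1 point per animal and a line at the group mean. In each of these genes every 7-HCG 30 kidney lies above every control kidney, by the widest margin on the log scale for Apom.

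Calls among peroxisome and lysosome genes were also nearly all higher. For peroxisome genes, 22 of 31 tested members were higher and 1 lower, with a median log2 fold change of 0.73. For the peroxisome list these counts were 7 higher and 1 lower with library totals alone, and 8 higher and 0 lower without the adipose-rich libraries. The peroxisomal oxidation gene Hsd17b4 rose by 1.17 ± 0.21 (adjusted p = 0.000677). The member that fell was Abcd2, a fatty acyl-CoA transporter gene named after its values were seen (log2 fold change -4.10 ± 1.02, adjusted p = 0.00517), which stood at -1.78, adjusted p = 0.222 without the adipose-rich libraries and at -2.36 without control replicate 5 alone. For lysosome genes, 16 of 30 tested members were higher and 0 lower, with a median log2 fold change of 0.76. For the lysosome list these counts were 6 higher and 0 lower with library totals alone, and 8 higher and 0 lower without the adipose-rich libraries. Psap, which encodes the activators of sphingolipid breakdown, and Npc2, which encodes a cholesterol carrier of the lysosome, rose by 1.27 ± 0.24 (adjusted p = 0.000762) and 1.16 ± 0.20 (adjusted p = 0.000369).

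Genes of enzymes that modify drugs, hormones and fatty acids gave mostly higher calls. Among cytochrome P450 genes, 16 of 29 tested members were higher and 0 lower, with a median log2 fold change of 1.16. For the P450 list these counts were 12 higher and 1 lower with library totals alone, and 5 higher and 0 lower without the adipose-rich libraries. Cyp4a14, which encodes a fatty acid hydroxylase induced through PPARα (chromosome 4, 115486200 to 115496142), had 295, 1335, 2308, 888 and 1892 CPM in 7-HCG 30 kidneys, against 108, 79.2, 83.8, 212 and 91.8 CPM in control, with no overlap (log2 fold change 3.55 ± 0.63, adjusted p = 0.00067). Cyp2d26 rose by 2.18 ± 0.36 (adjusted p = 0.00029). Cyp2a5, a coumarin hydroxylase gene in the mouse, rose by 2.12 ± 0.37 (adjusted p = 0.000501), a change that was smaller without the adipose-rich libraries (1.22, adjusted p = 0.0124). The carboxylesterase gene Ces2e rose by 4.58 ± 0.80 (adjusted p = 0.000686), and Abcb1b, which encodes a P-glycoprotein efflux pump, by 2.56 ± 0.50 (adjusted p = 0.00128).

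Glucuronidation, the conjugation reaction that forms 7-HCG in the body, was represented by the UGT genes. In the list of UGT and sulfotransferase genes, 8 of 23 tested members were higher and 1 lower, with a median log2 fold change of 0.57. For the UGT list these counts were 5 higher and 1 lower with library totals alone, and 5 higher and 0 lower without the adipose-rich libraries. Ugt1a1 had 0 counts in all 5 control libraries and 12 to 33 counts in each 7-HCG 30 library, 114 in all, which is at least 29.7-fold higher when 3 counts over the control group are taken as the floor. Ugt1a2 rose by 5.11 ± 0.83 (adjusted p = 0.000288), Ugt1a10 by 4.40 ± 0.78 (adjusted p = 0.00055) and Ugt1a7c by 3.41 ± 0.61 (adjusted p = 0.000759). The UGT1A genes share their last exons, so counts of single members are uncertain.

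For vitamin D and Klotho genes, 7 of 13 tested members were higher and 0 lower, with a median log2 fold change of 0.89. For the vitamin D list these counts were 6 higher and 0 lower with library totals alone, and 1 higher and 0 lower without the adipose-rich libraries. Cyp27b1, which makes active vitamin D, and Cyp24a1, which degrades it, rose by 2.76 ± 0.92 (adjusted p = 0.0274) and 2.98 ± 0.78 (adjusted p = 0.00789). Both calls ended without the adipose-rich libraries, at 2.13, adjusted p = 0.227, and 2.22, adjusted p = 0.116, and that of Cyp27b1 in 6 of 20 alternatives. Rxra, which encodes the partner of the vitamin D and PPAR receptors, rose by 1.07 ± 0.20 (adjusted p = 0.000733). For cholesterol synthesis, 7 of 25 tested members were higher and 1 lower, with a median log2 fold change of 0.11. For the cholesterol list these counts were 4 higher and 1 lower with library totals alone, and 4 higher and 0 lower without the adipose-rich libraries.

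Apom, which encodes the apolipoprotein that carries sphingosine-1-phosphate and lies on chromosome 17, 35128997 to 35132050, was named for its small p-value after its values were seen. It had 138, 106, 74.4, 70.6 and 62.1 CPM in 7-HCG 30 kidneys, against 6.07, 6.62, 5.72, 13.6 and 8.55 CPM in control. The groups did not overlap, and replicate 1 was again the highest 7-HCG 30 kidney (log2 fold change 3.48 ± 0.35, adjusted p = 9.97e-06). The log2 fold change stayed between 3.28 and 3.74 under each of the 20 settings tried apart from the block.

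The mRNAs of the mitochondrial genome, which encode 13 subunits of the respiratory chain and the ATP synthase, were lower in 7-HCG 30 kidneys. They took 8.01%, 5.12%, 6.38%, 7.03% and 7.53% of all counts in 7-HCG 30 kidneys, against 45.5%, 29.3%, 24.6%, 32.9% and 32.5% in control kidneys. The mean share was 6.82% ± 1.12 in 7-HCG 30 kidneys and 33.0% ± 7.75 in control kidneys (SD, n = 5 each), a difference of -26.2 percentage points that is larger than the spread in either group (2-sided exact permutation test over 252 splits, p = 0.00794). In cisplatin kidneys the share was 42.8% ± 29.0 (SD, n = 5), ranging from 16.6% to 77.7%. In kidneys given 15 mg/kg 7-HCG with cisplatin it was also low, at 5.33% ± 1.56 (SD, n = 5), ranging from 3.04% to 7.38%. RNA integrity per animal is not in the labels used here, and its part in these shares was not tested.

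By gene, 12 of the 13 mitochondrial mRNAs fell, with a median log2 fold change of -2.49, and for the mitochondrial list the counts were 0 higher and 13 lower with library totals alone, and 0 higher and 11 lower without the adipose-rich libraries. The median transcript of this list is 784 bp. Among complex I subunits, mt-Nd5 had 4027, 2453, 3138, 3508 and 3576 CPM in 7-HCG 30 kidneys, against 35382, 22110.3, 12707, 28747 and 29418 CPM in control (log2 fold change -2.94 ± 0.58, adjusted p = 0.00116). The subunit genes mt-Nd1, mt-Nd2 and mt-Nd4 fell with -2.01 ± 0.59 (adjusted p = 0.0131), -2.41 ± 0.59 (adjusted p = 0.00472) and -2.49 ± 0.57 (adjusted p = 0.00326). The mt-Nd3 gene fell with -1.93 ± 0.61 (adjusted p = 0.0218), a call that ended in 3 of 19 alternatives, and mt-Nd6, the only one of the 13 on the light strand, with -1.78 ± 0.48 (adjusted p = 0.00829). The largest fold change was that of mt-Nd4l (log2 fold change -5.27 ± 1.02, adjusted p = 0.00129), which overlaps mt-Nd4, so reads over both cannot be assigned.

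In the other complexes, mt-Cytb of complex III fell with -2.54 ± 0.61 (adjusted p = 0.00414) and mt-Co1 and mt-Co2 of complex IV with -2.26 ± 0.62 (adjusted p = 0.00908) and -3.11 ± 0.81 (adjusted p = 0.00758). The third complex IV gene, mt-Co3, was not called by the test (log2 fold change -1.89 ± 0.84, adjusted p = 0.0863; 172 to 799.7 CPM in 7-HCG 30 kidneys, against 873 to 2690.3 CPM in control), but was called in 4 of 19 alternatives. The ATP synthase genes mt-Atp6 and mt-Atp8, which overlap each other, fell with -3.21 ± 0.83 (adjusted p = 0.00703) and -4.20 ± 0.95 (adjusted p = 0.00337). Of these 13, mt-Nd1, mt-Nd2, mt-Nd3, mt-Nd6, mt-Co1, mt-Co2, mt-Cytb and mt-Atp6 were named after their values were seen.

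No nuclear gene of the respiratory chain list was called lower. For nuclear respiratory chain genes, 18 of 53 tested members were higher and 0 lower, with a median log2 fold change of 0.48. For the nuclear respiratory chain list these counts were 5 higher and 0 lower with library totals alone, and 6 higher and 0 lower without the adipose-rich libraries. The median transcript of this list is short, at 1232 bp, in a bin where 26.9% of all genes were higher and 7.84% lower. Sdha and Sdhd, subunit genes of complex II, which is encoded by the nucleus alone, rose by 1.16 ± 0.17 (adjusted p = 0.000176) and 1.42 ± 0.20 (adjusted p = 9.87e-05). Atp5b of the ATP synthase rose by 1.35 ± 0.22 (adjusted p = 0.000247) and Ndufv1 of complex I by 1.19 ± 0.22 (adjusted p = 0.000733). Among proteins of the mitochondrial ribosome, 19 of 39 tested members were higher and 0 lower, with a median log2 fold change of 0.53. For the mitochondrial ribosome list these counts were 8 higher and 0 lower with library totals alone, and 6 higher and 0 lower without the adipose-rich libraries. Mrps12, a small subunit protein gene, rose by 1.74 ± 0.23 (adjusted p = 7.12e-05).

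**Figure D4:**
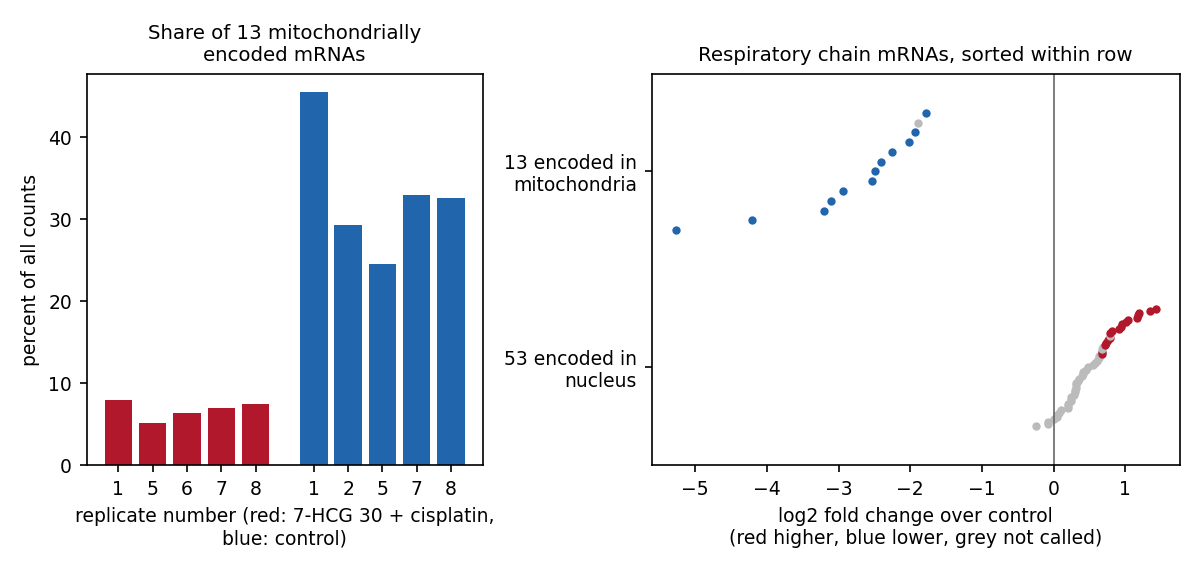
Left, share of all counts (percent, axis from 0) taken by the 13 mitochondrial mRNAs in each 7-HCG 30 and control kidney; right, log2 fold change (7-HCG 30 over control) of the 13 mitochondrial mRNAs and of 53 nuclear respiratory chain mRNAs, 1 point per gene. The 5 shares of 7-HCG 30 lie between 5.12% and 8.01%, all below the control range of 24.6% to 45.5%, and the medians by genome are -2.49 for mitochondrial and 0.48 for nuclear mRNAs.

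Calls among markers of several cell types other than tubule were mostly lower in 7-HCG 30 kidneys. For endothelial genes, 0 of 17 tested members were higher and 15 lower, with a median log2 fold change of -1.58. For the endothelial list these counts were 0 higher and 13 lower with library totals alone, and 0 higher and 3 lower without the adipose-rich libraries. The median transcript of the list is 3995 bp. Tek, which encodes the angiopoietin receptor TIE2, had 12.3, 5.72, 2.56, 10.2 and 12.0 CPM in 7-HCG 30 kidneys, against 41.3, 40.3, 44.4, 29.1 and 34.6 CPM in control (log2 fold change -2.14 ± 0.45, adjusted p = 0.00196). Robo4, an endothelial guidance receptor gene, fell with -1.49 ± 0.28 (adjusted p = 0.000931), and the endothelial phosphatase gene Ptprb with -1.85 ± 0.39 (adjusted p = 0.00171; -1.13, adjusted p = 0.0417 without the adipose-rich libraries). Pecam1 (CD31) and Vwf, the von Willebrand factor gene, fell with -1.73 ± 0.43 (adjusted p = 0.00523) and -2.23 ± 0.46 (adjusted p = 0.00162), but were not called without the adipose-rich libraries, at -0.82, adjusted p = 0.151, and -0.97, adjusted p = 0.114. Adipose tissue holds vessels and stroma of its own, and its part in these falls was not tested beyond that alternative.

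Stroma and matrix genes were lower as well. For fibroblast and mural genes, 1 of 15 tested members were higher and 12 lower, with a median log2 fold change of -1.40. For the fibroblast list these counts were 0 higher and 8 lower with library totals alone, and 0 higher and 2 lower without the adipose-rich libraries, with 7 lower without control replicate 5. Thy1, a surface glycoprotein gene, is counted on both the fibroblast list and the T and NK cell list, so its change cannot be assigned to either cell type. Thy1 had 1.45, 0.616, 0.659, 1.09 and 0.816 CPM in 7-HCG 30 kidneys, against 4.49, 13.5, 8.08, 6.98 and 3.73 CPM in control (log2 fold change -2.98 ± 0.42, adjusted p = 0.000115). Vim, the intermediate filament gene vimentin, fell with -1.33 ± 0.27 (adjusted p = 0.0015). The mural gene Cspg4 (NG2), named after its values were seen, went the other way (log2 fold change 0.77 ± 0.27, adjusted p = 0.0347), a call that ended in 10 of 20 alternatives. For matrix genes, 0 of 35 tested members were higher and 25 lower, with a median log2 fold change of -2.20. For the matrix list these counts were 0 higher and 25 lower with library totals alone, and 1 higher and 7 lower without the adipose-rich libraries. Their median transcript is long, at 5348 bp.

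Col15a1, a basement membrane collagen gene, had 9.82, 5.37, 2.42, 6.56 and 4.29 CPM in 7-HCG 30 kidneys, against 47.2, 56.3, 35.0, 40.6 and 29.7 CPM in control. No 7-HCG 30 kidney reached the lowest control value (log2 fold change -2.87 ± 0.42, adjusted p = 0.000164). Postn, which encodes periostin, fell with -3.68 ± 0.73 (adjusted p = 0.00133). Tnc and Tnn, which encode tenascins, fell with -3.75 ± 0.70 (adjusted p = 0.00105) and -4.21 ± 0.79 (adjusted p = 0.000994), and Fndc1, a fibronectin-domain gene, with -5.24 ± 0.85 (adjusted p = 0.000304). Without the adipose-rich libraries these changes were smaller, at -1.52, adjusted p = 0.0409 for Tnc, -2.39, adjusted p = 0.0116 for Tnn, and -3.30, adjusted p = 0.0172 for Fndc1. Col1a1, the main fibrillar collagen gene, fell with -2.69 ± 0.78 (adjusted p = 0.0139), and was not called without those libraries (-2.04, adjusted p = 0.128).

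Calls among lymphocyte genes, from low levels, and among macrophage genes were also nearly all lower. For T and NK cell genes, 0 of 14 tested members were higher and 13 lower, with a median log2 fold change of -2.60. For the lymphocyte list these counts were 0 higher and 10 lower with library totals alone, and 0 higher and 3 lower without the adipose-rich libraries, with 8 lower without 7-HCG 30 replicate 6. The summed CPM of the list was 2.78 to 7.72 in 7-HCG 30 kidneys, against 13.0 to 35.4 in control kidneys. Cd2, a T and NK cell adhesion gene, and Gzmb, which encodes a cytotoxic granule protease, fell with -3.05 ± 0.68 (adjusted p = 0.00252) and -4.46 ± 0.95 (adjusted p = 0.00197). For macrophage and monocyte genes, 1 of 19 tested members were higher and 8 lower, with a median log2 fold change of -1.12. For the macrophage list these counts were 0 higher and 6 lower with library totals alone, and 0 higher and 5 lower without the adipose-rich libraries, with 15 lower without 7-HCG 30 replicate 1. The summed CPM of this list overlapped between groups, at 122 to 255 in 7-HCG 30 kidneys, against 206 to 269 in control kidneys. The chemokine receptor genes Ccr2 and Cx3cr1 fell with -2.62 ± 0.51 (adjusted p = 0.000988) and -2.45 ± 0.65 (adjusted p = 0.00738), the mannose receptor gene Mrc1 with -2.61 ± 0.53 (adjusted p = 0.00143) and Aif1 (IBA1) with -2.49 ± 0.54 (adjusted p = 0.00219). The 1 rise was Plac8, named after its values were seen (log2 fold change 1.31 ± 0.46, adjusted p = 0.0322), a call that ended in 8 of 20 alternatives and stood at 0.83 without 7-HCG 30 replicate 6. For neutrophil genes, 1 of 7 tested members was higher and 1 lower, with a median log2 fold change of -0.09. The higher one was Lcn2. The counts were 1 and 0 with library totals alone, and 1 and 1 without the adipose-rich libraries. The median transcript of the list is 1356 bp. The neutrophil marker gene S100a8 stayed at or below 0.420 CPM in 7-HCG 30 kidneys and 0.479 CPM in control kidneys. S100a9 reached 1.96 CPM in 7-HCG 30 kidneys and 1.03 CPM in control kidneys.

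Red cell genes had the lowest median of the 65 lists. 1 of 8 tested members were higher and 6 lower, with a median log2 fold change of -6.86. For the red cell list these counts were 0 higher and 5 lower with library totals alone, and 1 higher and 5 lower without the adipose-rich libraries. The median transcript of the list is 1055 bp. Hba-a1, an α-globin gene, had 0.629, 0.733, 0.220, 0.281 and 0.839 CPM in 7-HCG 30 kidneys, against 111, 304, 214, 177 and 68.0 CPM in control (log2 fold change -8.32 ± 1.30, adjusted p = 0.000313). Hbb-bs, a β-globin gene, had 12 counts in all 5 of the 7-HCG 30 libraries together, with 0 in 2 of them, and 24708 in the control libraries. Hbb-bt had 2 counts against 3480, and Hba-a2 had 3 counts against 3505, in the same order of groups. Alas2, the haem synthesis gene of erythroid cells, fell with -5.40 ± 0.80 (adjusted p = 0.000164). The globin genes are near copies that may share reads, and whether the kidneys were perfused or drained alike is not in the labels used here, so blood content and erythroid RNA per cell cannot be told apart. The 1 rise was Bpgm, a red cell glycolysis gene that other cells also express, named after its values were seen (log2 fold change 0.53 ± 0.19, adjusted p = 0.0328; ended in 11 of 20 alternatives).

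Adipose genes did not separate the groups. 1 of 11 tested members were higher and 4 lower, with a median log2 fold change of -2.64. For the adipose list these counts were 0 higher and 2 lower with library totals alone, and 1 higher and 1 lower without the adipose-rich libraries. Its median transcript is 1720 bp. Fabp4, a fatty acid carrier gene of fat cells and capillaries, had 26.2, 26.6, 92.5, 29.3 and 47.6 CPM in 7-HCG 30 kidneys, against 86.1, 207, 789, 60.2 and 60.1 CPM in control. The highest values belonged to control replicates 2 and 5, and the fold change (log2 fold change -2.44 ± 0.61, adjusted p = 0.00576) was smaller without the adipose-rich libraries (-1.08, adjusted p = 0.0222) or without control replicate 5 alone (-1.22). The mean log2 CPM of the list ranged from 1.40 to 5.18 in 7-HCG 30 kidneys and from 1.03 to 7.78 in control kidneys.

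**Figure D5:**
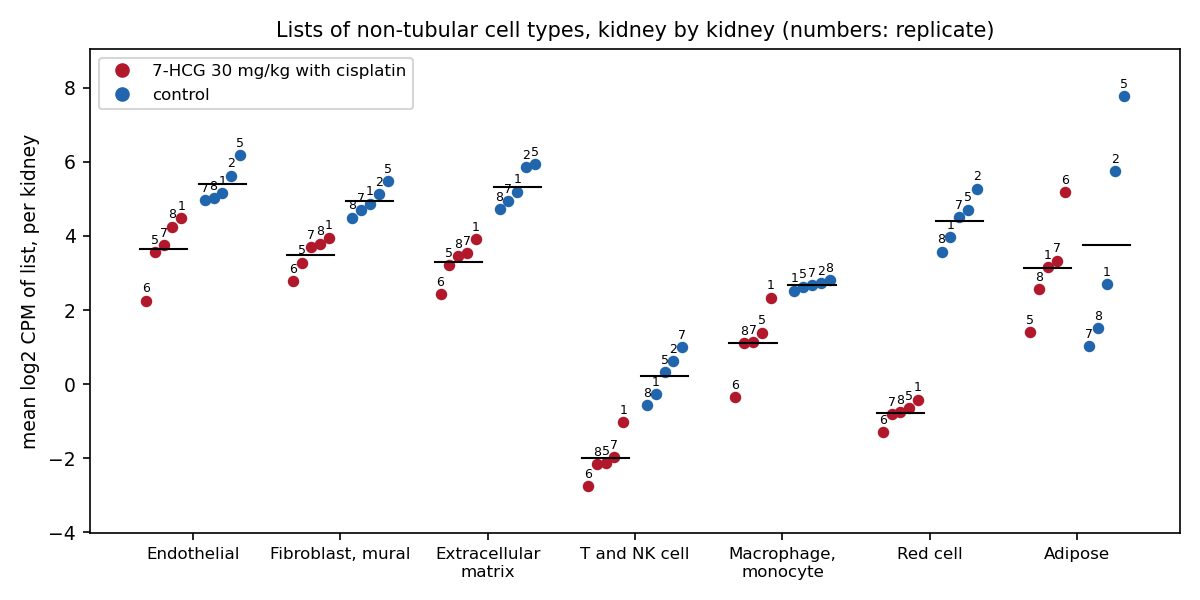
Mean log2 CPM per kidney (vertical axis) of the endothelial, fibroblast and mural, matrix, T and NK cell, macrophage, red cell and adipose lists, with 7-HCG 30 kidneys left of control kidneys and 1 point per animal. Red cell means lie between -1.30 and -0.42 in 7-HCG 30 kidneys and between 3.57 and 5.28 in control kidneys, while the adipose means of the groups overlap.

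Genes of the cell cycle that were called were lower in 7-HCG 30 kidneys, with 1 exception. 1 of 40 tested members were higher and 19 lower, with a median log2 fold change of -1.04. For the cell cycle list these counts were 0 higher and 8 lower with library totals alone, and 0 higher and 9 lower without the adipose-rich libraries. Mki67, the proliferation marker Ki-67, had 0.723, 1.44, 0.915, 1.90 and 1.56 CPM in 7-HCG 30 kidneys, against 15.0, 10.8, 6.08, 15.7 and 14.1 CPM in control, and the groups did not overlap (log2 fold change -3.22 ± 0.52, adjusted p = 0.000265). Bub1, a spindle checkpoint kinase gene, Foxm1, a transcription factor gene of mitosis, and Ccnb2, a mitotic cyclin gene, fell with -3.54 ± 0.69 (adjusted p = 0.00106), -2.09 ± 0.43 (adjusted p = 0.00155) and -2.50 ± 0.53 (adjusted p = 0.00188). Tyms, the thymidylate synthase gene, named after its values were seen, went up (log2 fold change 0.62 ± 0.22, adjusted p = 0.0355), a call that ended in 11 of 20 alternatives.

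Genes of protein synthesis and breakdown were called higher or were not called. For cytosolic ribosomal proteins, 21 of 61 tested members were higher and 0 lower, with a median log2 fold change of 0.53. For the ribosomal protein list these counts were 5 higher and 0 lower with library totals alone, and 7 higher and 0 lower without the adipose-rich libraries. The median transcript of the list is 1120 bp, in a bin where 26.9% of all genes were higher and 7.84% lower. On this list 13 members were higher without control replicate 1. Rpl5, a large subunit protein gene, rose by 1.19 ± 0.21 (adjusted p = 0.000486). For proteasome subunits, 20 of 32 tested members were higher and 0 lower, with a median log2 fold change of 0.58. For the proteasome list these counts were 5 higher and 0 lower with library totals alone, and 7 higher and 0 lower without the adipose-rich libraries. Psmd8 rose by 1.42 ± 0.21 (adjusted p = 0.000176). Their median transcript is 1851 bp, and 13 members were higher when any of control replicates 1, 2 and 5 or 7-HCG 30 replicates 5 and 6 was left out.

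Most splicing and chromatin genes were not called, and among those called more were lower than higher. For splicing factors, 1 of 39 tested members were higher and 8 lower, with a median log2 fold change of -0.14. For the splicing list these counts were 1 higher and 2 lower with library totals alone, and 1 higher and 7 lower without the adipose-rich libraries. Srsf7, Tra2a and Hnrnph1, which encode proteins that choose splice sites, fell with -1.02 ± 0.20 (adjusted p = 0.0012), -1.28 ± 0.28 (adjusted p = 0.00202) and -1.30 ± 0.32 (adjusted p = 0.00506; -1.27, adjusted p = 0.06 with library totals alone). Snrpb, a core spliceosome gene, rose by 1.12 ± 0.21 (adjusted p = 0.000896). For chromatin regulators, 0 of 32 tested members were higher and 11 lower, with a median log2 fold change of -0.42. For the chromatin list these counts were 0 higher and 4 lower with library totals alone, and 0 higher and 6 lower without the adipose-rich libraries. Their median transcript is 8268.5 bp, in the longest bin, where 6.25% of all genes were higher, 28.2% were lower and the median was -0.36. On this list 6 members were lower without 7-HCG 30 replicate 1 and 7 without control replicate 1 or 7-HCG 30 replicate 5. The histone methyltransferase genes Kmt2a, Kmt2c and Kmt2d fell with -1.47 ± 0.29 (adjusted p = 0.00126), -1.37 ± 0.28 (adjusted p = 0.00154) and -1.51 ± 0.23 (adjusted p = 0.00018), and Tet3, which encodes a DNA demethylase, with -1.12 ± 0.20 (adjusted p = 0.00055).

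Clock genes as a list were mixed. 5 of 20 tested members were higher and 3 lower, with a median log2 fold change of 0.08. For the clock list these counts were 4 higher and 0 lower with library totals alone, and 4 higher and 3 lower without the adipose-rich libraries. The clock-linked repressor genes Bhlhe40 and Nfil3 rose by 1.47 ± 0.28 (adjusted p = 0.000919) and 1.96 ± 0.43 (adjusted p = 0.00229), and the cell cycle kinase gene Wee1 by 1.48 ± 0.25 (adjusted p = 0.000331). The hour at which kidneys were taken is not in the labels used here.

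To ask which of these differences depart from those after cisplatin alone, the 7-HCG 30 libraries were tested directly against the 5 cisplatin libraries. This test called 4148 genes (27.9%), 2180 (14.7%) higher and 1968 (13.2%) lower. Cisplatin replicates 9 and 10 held 77.7% and 70.6% mitochondrial counts, and without them, an alternative chosen after seeing the data, 1115 were higher and 1107 lower. With library totals alone, 1220 were higher and 193 lower, and the median of all genes shifted to 0.39. Injury genes rarely differed, with 1 higher and 0 lower of 32 against cisplatin alone (0 and 0 without cisplatin replicates 9 and 10). Lcn2 averaged 314 ± 321 CPM in 7-HCG 30 kidneys, 364 ± 94.2 in cisplatin (SD, n = 5 each), a log2 fold change of -0.21 ± 0.91, adjusted p = 0.882. Havcr1 averaged 98.5 ± 91.3 CPM in 7-HCG 30 kidneys, 32.7 ± 31.5 in cisplatin, a log2 fold change of 1.57 ± 0.93, adjusted p = 0.214. Cdkn1a averaged 212 ± 166 CPM in 7-HCG 30 kidneys, 198 ± 55.3 in cisplatin, a log2 fold change of 0.10 ± 0.69, adjusted p = 0.928. These intervals are wide, so the test does not show that the groups are alike in these genes.

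Among metabolic and transport genes, calls against cisplatin alone were nearly all higher. This test uses the same 5 7-HCG 30 libraries as the comparison with control, so the results of both are not independent. Fatty acid oxidation had 20 higher and 0 lower of 40 against cisplatin alone (14 and 0 without cisplatin replicates 9 and 10). Gluconeogenesis had 8 higher and 0 lower of 13 against cisplatin alone (6 and 0 without cisplatin replicates 9 and 10). Proximal tubule transport had 26 higher and 1 lower of 48 against cisplatin alone (15 and 1 without cisplatin replicates 9 and 10). Apom averaged 90.3 ± 31.5 CPM in 7-HCG 30 kidneys, 9.62 ± 3.67 in cisplatin, a log2 fold change of 3.24 ± 0.35, adjusted p = 4.2e-05. Slc3a1 differed by 2.44 ± 0.40, adjusted p = 0.000694, Fbp1 by 1.99 ± 0.33, adjusted p = 0.000694 and Acadvl by 1.55 ± 0.26, adjusted p = 0.000694. Cyp2e1, Etfdh, Pccb, Sdhd and Lrp2 were also higher than after cisplatin alone, with log2 fold changes of 1.93 ± 0.37, 1.21 ± 0.16, 1.29 ± 0.18, 1.43 ± 0.20 and 1.55 ± 0.35. All of these genes were called with and without cisplatin replicates 9 and 10 and with library totals alone.

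In other lists the calls against cisplatin alone went either way. Of all tested genes, 14.7% were higher and 13.2% lower in this test. Without cisplatin replicates 9 and 10, the genes called in all were 1115 higher and 1107 lower. The mitochondrial mRNAs had 0 higher and 13 lower against cisplatin alone (0 and 12 without cisplatin replicates 9 and 10). The log2 fold change of mt-Nd5 was -4.01 ± 0.61, adjusted p = 0.000466, and that of mt-Cytb was -3.76 ± 0.64, adjusted p = 0.000735. Without cisplatin replicates 9 and 10 these were smaller, at -2.02 for mt-Nd5 and -1.61 for mt-Cytb. The p38 list had 0 higher and 11 lower of 40 against cisplatin alone (0 and 4 without cisplatin replicates 9 and 10). Mapk12 stood at -1.25 ± 0.24, adjusted p = 0.00141, and at -0.90 with library totals alone, where it was not called (adjusted p = 0.107). The matrix list had 0 higher and 13 lower of 35 against cisplatin alone (0 and 0 without cisplatin replicates 9 and 10). The endothelial list had 1 higher and 3 lower of 17 against cisplatin alone (0 and 2 without cisplatin replicates 9 and 10). Chromatin regulators had 0 higher and 13 lower of 32 (0 and 11 without those replicates, 0 and 0 with library totals alone). Splicing factors had 2 higher and 15 lower of 39 (1 and 12, and 1 and 2, in the same order). In this test the longest length bin had a median log2 fold change of -0.27. The p53 list had 2 higher and 6 lower of 38 (0 and 2 without those replicates). Immediate early genes had 0 higher and 7 lower of 24 (0 and 0 without those replicates). The NRF2 list had 7 higher and 0 lower of 29 against cisplatin alone (4 and 0 without cisplatin replicates 9 and 10). Promoters of apoptosis had 7 higher and 1 lower of 27 against cisplatin alone (1 and 0 without cisplatin replicates 9 and 10). Bid was higher by 1.13 ± 0.23, adjusted p = 0.00196.

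The 30 mg/kg dose was not distinguishable from 15 mg/kg at the level of single genes. The edgeR test called 0 of 14858 genes between 7-HCG 30 and 7-HCG 15 kidneys, with 1066 genes at an unadjusted p below 0.05, and DESeq2 called 1 gene, which was lower. Against control, 6709 genes (45.2%) were called at 15 mg/kg, 3411 (23%) higher and 3298 (22.2%) lower. After cisplatin alone 1994 (13.4%) were called, 1250 (8.41%) higher and 744 (5.01%) lower. These comparisons share the control libraries, and the absence of calls between the doses does not show that they act alike.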

How the data were processed

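Kidney mRNA was measured in 20 libraries. The authors deposited 1 table that gives raw read counts by gene for every library, per the file headers, with their own log2 fold changes, p-values and q-values, which were used only where the authors' deposited table is named. Per the submitters' processing notes, FastQC, Trimmomatic, HISAT2, StringTie and DESeq2 were used on GRCm38 (mm10). No source used here names the counting program, its strand setting, the annotation release or a batch, so overlapping genes on opposite strands cannot be told apart. The series design text gives the fold changes as log2.

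All 20 libraries entered 1 robust quasi-likelihood fit in edgeR 4.0.16 (R 4.3.3) with TMM scaling (factors 0.959 to 1.40 in the 10 libraries compared) and filterByExpr, with 16 residual degrees of freedom. Every adjusted p is from this F-test with Benjamini-Hochberg adjustment over 14858 genes, threshold 0.05, unless DESeq2 1.42.0, limma voom 3.58.1 or a permutation test is named. CPM use TMM-scaled library sizes. Groups come from the sample titles. P-values of this fit measure the spread between the 5 animals within each group, pooled over all 20 libraries. They therefore also draw on the spread within the cisplatin group and the lower 7-HCG dose. For 7-HCG 30 against control, the full fit gave 5088 calls and the 10 libraries alone gave 5712. Leaving out cisplatin replicates 9 and 10 gave 6067. Replicates differed by more than counting noise (chi-square per degree of freedom 27.08 to 345.5 over 20 pairs). Floors cover counting error only, and reads are not independent molecules.

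The members and the 65 gene lists were chosen with earlier results of these data known. Genes named were a fixed panel, the 12 largest rises and 12 largest falls, and up to 4 called and 2 uncalled members per list. Rises and falls were ranked among called genes whose groups did not overlap and whose higher group averaged 2 CPM or more. Symbols that start with Gm and a digit or end in Rik were left out of that ranking. The text takes examples from the genes so named, selected with their values known, and exceptions are marked. Some genes that this rule names are not reported here. Coordinates are the deposited table's, in GRCm38, and 25277 of 25638 genes (98.6%) matched GENCODE vM21 by symbol and place. Alternatives were RLE scaling, library totals alone, DESeq2, limma voom, other low-count filters, mitochondrial mRNAs left out, the 10 libraries alone, cisplatin replicates 9 and 10 left out, adipose-rich libraries left out, each replicate left out and a replicate block.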

Additional observations from a re-analysis of the deposited data

Results flagged for a closer look

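In each gene named in the text, the 5 animals of a group were examined for 1 value that stood apart from the other 4 on the log2 CPM scale. Of 340 groups, 15 (4.41%) held such a value, and chance alone flags about 1 in 20. In 7-HCG 30 kidneys, 7 of these values belonged to replicate 1, the animal with the lowest injury markers. It was below the others of its group in Fos (0.583 CPM, others 3.87 to 7.69), Gldc (98.1 CPM, others 185 to 214), Ugt1a10 (1.84 CPM, others 3.14 to 3.76), Hnrnph1 (28.7 CPM, others 68.0 to 88.4) and Kmt2a (5.83 CPM, others 15.9 to 20.1). It was above them in Bckdha (123 CPM, others 47.1 to 61.7) and Sdhd (392.9 CPM, others 244 to 272).

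Replicate 6 of 7-HCG 30, the animal with the highest injury markers, was above its group in Errfi1 (809.5 CPM, others 244 to 297) and below it in the macrophage genes Ccr2 (0.147 CPM, others 0.763 to 1.14), Mrc1 (0.183 CPM, others 0.816 to 1.16) and Cx3cr1 (0.0366 CPM, others 1.05 to 1.31). Hbb-bt was at 0.0331 CPM in 7-HCG 30 replicate 7 and at 0 in the others of that group, a difference of 2 counts. In control kidneys, replicate 5 was low in Gsta1 (0.111 CPM, others 0.399 to 0.624), and replicate 1 was low in Rxra (40.9 CPM, others 65.5 to 73.7) and high in Tra2a (65.3 CPM, others 37.4 to 42.1).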

How the results depend on the processing

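Of 159 called genes in the text, 118 kept their call under every one of 20 settings, the block aside, 112 of them within 1.5-fold of their log2 fold change. For 7-HCG 30 against control, library totals alone gave 2051 calls (926 higher, 1125 lower) and leaving out the adipose-rich libraries gave 1955 (1142 higher, 813 lower); the second setting has fewer animals, and the cause of neither change was tested. It turned Hspa1a (0.21), Hspa1b (0.019) and Hsph1 (0.13). Leaving out 1 animal gave 3873 to 5062 calls, 2074 to 2717 higher and 1669 to 2345 lower. For 7-HCG 30 against cisplatin (4148), library totals alone gave 1413 (1220 higher, 193 lower), leaving out cisplatin replicates 9 and 10, chosen after seeing the data, gave 2222 (1115 higher, 1107 lower), DESeq2 gave 4870, and leaving out 1 animal gave 3155 to 4668 (1606 to 2477 higher, 1515 to 2191 lower). In that comparison Lcn2 turned to 0.094 with library totals alone, and Cdkn1a to -0.0180 by DESeq2. Leaving out 1 animal gave -0.98 to 0.10 for Lcn2 and -0.45 to 0.37 for Cdkn1a, turning the first without 7-HCG 30 replicate 1 and the second without replicate 6; none was called. Between the doses DESeq2 called 1 gene, lower, and leaving out 1 animal gave 0 to 2, all lower. The mitochondrial share differed by -28.3 to -23.0 percentage points with 1 animal left out, by -25.5 as a median of shares (exact permutation p = 0.0476) and by -43.6 per 100 nuclear counts.

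With the replicate number as a block, 4330 genes were called against control (2304 higher, 2026 lower) and 310 against cisplatin (152 higher, 158 lower), where Cdkn1a stood at -0.18. Deviations of same-numbered 7-HCG 30 and control animals correlated at -0.089, -0.14, 0.038 and -0.31. Those of differently numbered animals correlated at -0.294 to 0.248. What the numbers stand for is not in the labels used here, and these correlations cannot settle it. The 7-HCG 30 and cisplatin groups have only replicate number 6 in common. Low counts limit Ugt1a1, Ugt1a2, Ugt1a10, Il1f6, Saa3, Cldn14 and the lymphocyte genes, among others.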

Other observations

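Further lists were counted in the same comparison, in which 18.6% of all tested genes were higher and 15.6% lower. Of 13 genes of polyamine metabolism, 7 were higher in 7-HCG 30 kidneys than in control and 0 lower (median log2 fold change 0.64; 1 and 0 without the adipose-rich libraries). For iron handling the counts were 6 higher and 0 lower of 16 (median 0.32; 4 and 1 without those libraries). In the renin-angiotensin system the counts were 4 higher and 0 lower of 9 (median 0.92; 1 and 0 without those libraries). Among genes of glycolysis the counts were 7 higher and 4 lower of 22 (median 0.33; 6 and 0 without those libraries). Within the hypoxia response the counts were 5 higher and 3 lower of 17 (median 0.20; 4 and 1 without those libraries). For NF-κB signalling the counts were 7 higher and 3 lower of 24 (median 0.56; 1 and 1 without those libraries).

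Inflammatory and stress lists held calls in both directions or few calls. Of 30 chemokine genes, 2 were higher in 7-HCG 30 kidneys than in control and 9 lower (median log2 fold change -1.14; 0 and 2 without the adipose-rich libraries; median transcript 1867 bp). For complement the counts were 5 higher and 5 lower of 20 (median -0.65; 3 and 0 without those libraries). In the interferon response the counts were 1 higher and 3 lower of 30 (median 0.11; 1 and 0 without those libraries). Among genes of antigen presentation the counts were 0 higher and 1 lower of 21 (median -0.05; 0 and 1 without those libraries). Within the unfolded protein response the counts were 6 higher and 3 lower of 29 (median 0.28; 4 and 0 without those libraries). For DNA repair the counts were 4 higher and 5 lower of 36 (median -0.13; 3 and 2 without those libraries).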
